A study of Homo sapiens with 6 samples.

Results

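Ceramide, sphingolipid and barrier lipid genes were followed in HaCaT, a human skin keratinocyte line that became immortal without an added oncogene. The set holds 47 named genes, chosen by name as enzymes, subunits and carriers of the pathway, and all 47 were found among the 46287 rows of the count table. RNA was measured in 6 bulk libraries: 3 of wild-type control cells and 3 of cells labelled as carrying a homozygous SDR42E1 knockout made by CRISPR/Cas9. Both groups were grown in serum-containing medium as a monolayer and harvested before confluence, and no treatment is named. The labels call the replicates biological without saying whether they were separate cultures or edited clones, so the p-values reflect how much these libraries varied and nothing wider. The study asked how loss of SDR42E1, a short-chain dehydrogenase/reductase linked to vitamin D, changes the transcriptome.

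Sphingolipids are built on a sphingoid base that serine palmitoyltransferase makes from serine and a fatty acyl-CoA. Ceramide synthases add a second fatty acid, and the ceramide is then turned into glucosylceramide or sphingomyelin, phosphorylated, or broken down again by ceramidases. In stratified epidermis, ceramides with very long acyl chains, esterified with linoleate and oxidised by lipoxygenases, form the lipid layers of the outer skin barrier. That last branch belongs to late differentiation, whereas the earlier steps run in most cells.

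Control libraries held 12094896 to 16928201 counts and knockout libraries 11504473 to 13454544. SDR42E1 itself had fewer reads in each knockout library, at 268, 265 and 237 counts against 650, 822 and 601 in the controls, and was still present. The median of the tested genes around it was lower in the knockout too, as given below. All 12 keratinocyte markers were tested, KRT5, KRT14 and TP63 among them, and 7 rose, 2 fell and 3 did not pass. Their summed level was 10240 to 11000 CPM (counts scaled to the library total) in control and 12190 to 12670 CPM in knockout libraries. The sum hides opposite changes: mean KRT6A went from 1120 to 2680 CPM, and mean KRT5 from 2698 to 1709 CPM. Of 14 late differentiation markers 8 were tested, 2 of which rose and 4 fell. Their summed level was 346 to 353 CPM in control and 235 to 250 CPM in knockout libraries, and LORICRIN, TGM3 and CASP14 had 0 counts throughout. The fibroblast (8 genes), melanocyte (6), immune (7) and endothelial (4) lists summed to at most 10.6 CPM in any library. DCN, PDGFRA, TYR and CD3E were at 0. The 7 sebocyte markers summed to 1351 to 1400 CPM in control and 1504 to 1636 CPM in knockout libraries, most of it KRT7 and FASN, and MC5R and AWAT2 were at 0.

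Of the 47 genes, 39 had enough counts to be tested and 22 passed the threshold (adjusted p under 0.05 in edgeR's quasi-likelihood test), 9 higher and 13 lower in the knockout. That is 56.4% of the tested members, where 50.4% of all 12293 tested genes passed (24.6% higher and 25.8% lower). The median log2 fold change (log2FC) of knockout over control was 0.0016 for the members and -0.004 for all tested genes. Changes of at least 1.5-fold were found in 8 members, 7 rises and 1 fall (17.9% and 2.56% of those tested). Among all tested genes 4.99% rose and 10.4% fell by that much, 15.4% together. The CPM values of the groups did not overlap in 23 of the 39 tested members (59.0%), against 56.5% of all tested genes. The count of lower members was 8 without control replicate 2, while the count of higher members stayed between 8 and 10 with any 1 library left out. Without control replicate 2 the count over all tested genes was also at its lowest among these fits, 5338 against 6197.

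**Figure D1:**
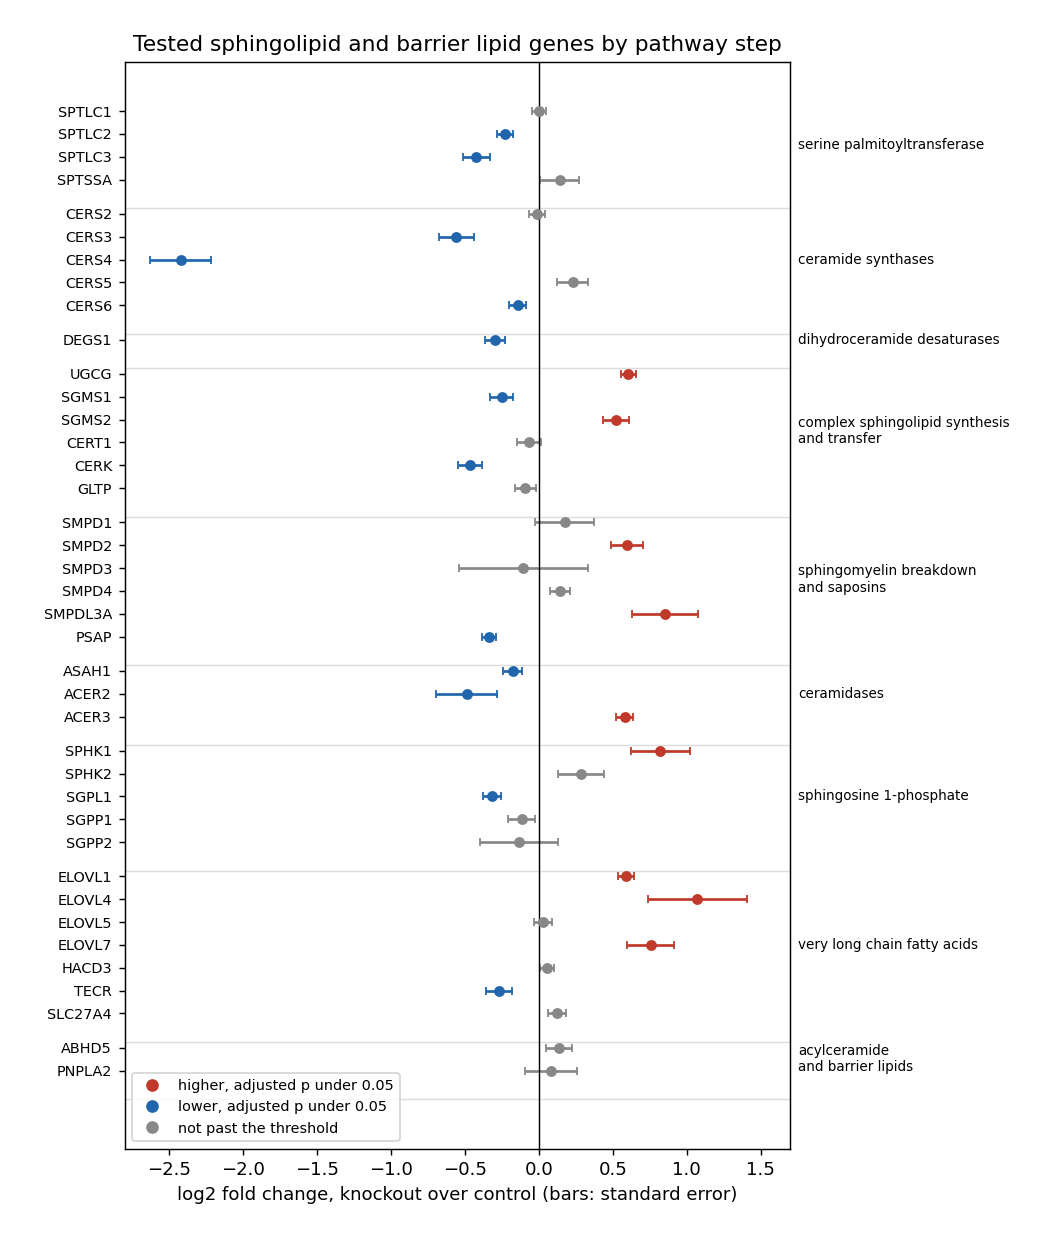
Log2FC of knockout over control (x axis, bars are the standard error) for the 39 tested genes, grouped by pathway step. Red points are the 9 genes that rose, blue points the 13 that fell and grey points the 17 that did not pass the threshold. CERS4 lies far to the left at -2.42, and 3 of the 4 elongases lie to the right.

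Serine palmitoyltransferase starts the pathway. Its constant subunit SPTLC1 stood at 188, 188 and 190 CPM in the controls and 194, 178 and 196 CPM in the knockout, which overlap (log2FC 0.0016, adjusted p = 0.983). Both alternative catalytic subunits fell. SPTLC2 went from 146 ± 5.82 to 125 ± 6.19 CPM (SD, n = 3 each; log2FC -0.23, SE 0.05, adjusted p = 0.000429). SPTLC3, which favours shorter acyl-CoA substrates, fell by more, from 30.6, 31.5 and 35.2 CPM to 22.1, 24.0 and 26.3 CPM (log2FC -0.42, SE 0.09, adjusted p = 0.000191). Every knockout library lay below every control library for both genes. The small activating subunit SPTSSA did not pass (log2FC 0.14, adjusted p = 0.403), and its counterpart SPTSSB was near 0, with 5 counts over the controls and 3 over the knockout (ratio 0.722, 95% counting interval 0.112 to 3.71).

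Ceramide synthases differ in the length of the fatty acid they attach. CERS4, which prefers long-chain acyl-CoAs, had the largest fold change of all tested members. It held 148, 206 and 167 counts in the controls and 35, 31 and 15 in the knockout. No library of one group came near the other, with means of 12.0 ± 1.46 and 2.23 ± 0.864 CPM. Its log2FC was -2.42 (SE 0.21, adjusted p = 4.70e-12), a 5.36-fold fall, and the value was -2.68 when knockout replicate 1 was left out and -2.16 when knockout replicate 3 was. CERS4 lies on chromosome 19 from 8206736 to 8262421, plus strand (GRCh38).

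CERS3, the synthase of the ultra-long-chain ceramides of epidermis and testis, also fell. It went from 18.0, 15.6 and 17.2 CPM to 10.9, 11.7 and 11.8 CPM (log2FC -0.56, SE 0.12, adjusted p = 0.000170). CERS2, the broadly expressed synthase for very long chains, was level at 119 ± 1.60 and 118 ± 5.29 CPM (log2FC -0.02, adjusted p = 0.833). CERS6 and CERS5 both make palmitoyl ceramides. CERS6 fell slightly (log2FC -0.14, adjusted p = 0.0339), with groups that overlapped, and the call was lost without control replicate 2 or 3, without knockout replicate 1 or 2, and in DESeq2 (adjusted p 0.00853 to 0.223 over all settings). CERS5 had a log2FC of 0.23 and did not pass (adjusted p = 0.0691), although its groups did not overlap; it passed without knockout replicate 2 (adjusted p = 0.0388).

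DEGS1, the desaturase that turns dihydroceramide into ceramide, fell from 57.1 ± 3.24 to 46.4 ± 0.957 CPM (log2FC -0.30, SE 0.07, adjusted p = 0.000580). DEGS2, the desaturase and hydroxylase that makes phytoceramide, was too low for the test. It had 4, 7 and 0 counts in the controls and 0 in each knockout library. With the knockout set at the floor of 3 counts over the group, the ratio is 3.05-fold lower. That figure takes the 11 control counts as exact, so it is not a lower bound on the fall. Tested without the filter on low counts it passed (adjusted p = 0.0251), but control replicate 3 was itself at 0.

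Levels of different genes were compared as CPM per kilobase of merged exons. Merged exons join those of all annotated transcripts and can be longer than the transcript in the cells. Shares between genes therefore depend on these lengths, and were not checked against other lengths. Within the 5 ceramide synthases, CERS2 made up 51.4% ± 0.533 of this total in the controls and 56.2% ± 2.30 in the knockout, and CERS6 30.8% ± 1.03 and 30.8% ± 2.25. The share of CERS4 went from 5.92% ± 0.647 to 1.21% ± 0.458. CERS3 took 6.60% ± 0.482 of the controls' total and 4.94% ± 0.262 of the knockout's, and CERS5 5.26% ± 0.356 and 6.81% ± 0.642. In the control libraries CERS3, CERS4 and CERS5 lay in a narrow band from 4.98% to 7.07%, and in each knockout library CERS4 was the lowest of the 5. Bulk RNA cannot tell fewer cells with a transcript from less of it per cell.

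**Figure D2:**
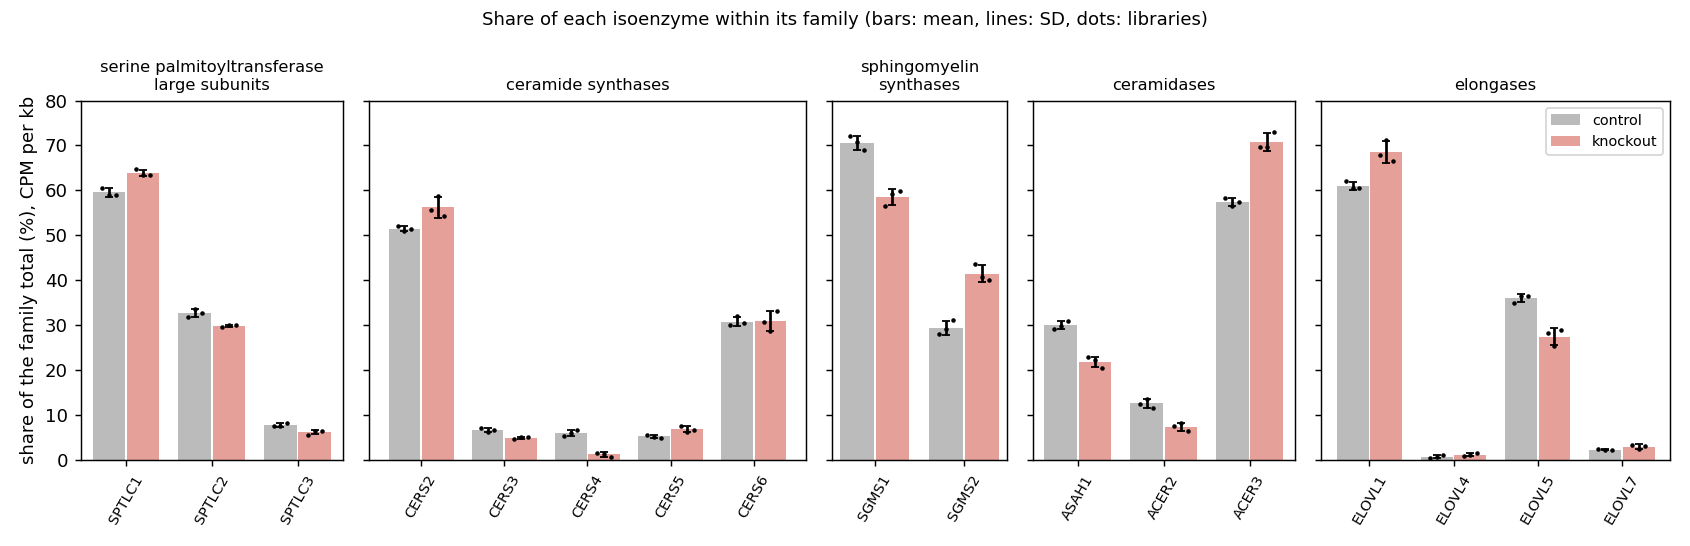
Share of each isoenzyme in the summed CPM per kilobase of the members shown for its family (y axis, %) in control (grey) and knockout (red) libraries. The totals leave out ELOVL6 (7.23 CPM per kilobase in control and 8.95 in knockout) and ASAH2 (0.199 in both groups), which are not members. Bars are means, lines the SD and dots the 3 libraries of a group. Shares without overlap between the groups are smaller in the knockout for SPTLC2, SPTLC3, CERS3, CERS4, SGMS1, ASAH1, ACER2 and ELOVL5. They are larger for SPTLC1, CERS2, CERS5, SGMS2, ACER3 and ELOVL1. A smaller share need not be a fall in level, as ELOVL5 stood at 84.9 CPM in control and 86.5 CPM in knockout.

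Enzymes that use ceramide moved in both directions. UGCG, glucosylceramide synthase and the entry to the glycosphingolipids, rose with little spread. Its counts were 1782, 2123 and 1622 in the controls and 2268, 2524 and 2217 in the knockout, or 128, 123 and 132 against 196, 192 and 194 CPM. The log2FC was 0.60 (SE 0.05, adjusted p = 7.20e-13), a 1.52-fold rise. SGMS2, the sphingomyelin synthase of the plasma membrane, rose from 22.7 ± 1.00 to 32.6 ± 1.98 CPM (log2FC 0.52, SE 0.09, adjusted p = 6.74e-06).

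The Golgi enzyme SGMS1 went the other way, from 47.2, 48.7 and 42.0 CPM to 38.0, 39.3 and 38.8 CPM (log2FC -0.25, SE 0.08, adjusted p = 0.00606; 0.0590 without control replicate 2). Per kilobase, SGMS2 made up 29.4% ± 1.54 of both synthases in the controls and 41.5% ± 1.82 in the knockout, and the groups did not overlap. CERK, the ceramide kinase, fell from 41.2, 44.2 and 41.3 CPM to 30.2, 30.3 and 31.5 CPM (log2FC -0.47, SE 0.08, adjusted p = 6.67e-06). The lipid carriers did not pass: CERT1, which brings ceramide to the Golgi for sphingomyelin synthesis, had a log2FC of -0.07 (adjusted p = 0.506) and GLTP, a glycolipid transfer protein, -0.09 (adjusted p = 0.278).

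The promoters of UGCG and SGMS2, the 2 enzymes of complex sphingolipid synthesis that rose, are shown from RefSeq (GRCh38.p14), 5′ to 3′ on the gene's strand. Each window is the part of the 250 bases before the first listed start that lies ahead of any annotated exon. Capitals mark the GC box GGGCGG or the AP-1 type sequence TGANTCA, searched on both strands. UGCG lies at chr9:111896564-111896765, plus strand, and SGMS2 at chr4:107824313-107824562, plus strand.
UGCG: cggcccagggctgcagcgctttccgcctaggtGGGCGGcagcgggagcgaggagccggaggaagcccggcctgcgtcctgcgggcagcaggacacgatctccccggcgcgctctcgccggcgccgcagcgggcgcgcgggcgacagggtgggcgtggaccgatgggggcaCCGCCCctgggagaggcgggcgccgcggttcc
SGMS2: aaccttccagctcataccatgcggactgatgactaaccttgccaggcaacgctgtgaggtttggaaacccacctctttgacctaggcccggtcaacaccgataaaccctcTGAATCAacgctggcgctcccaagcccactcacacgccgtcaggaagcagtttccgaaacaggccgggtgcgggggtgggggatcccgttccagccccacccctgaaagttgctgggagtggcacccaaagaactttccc
The UGCG window holds 2 GC boxes and 0 AP-1 type sequences, and the printed SGMS2 window 0 GC boxes and 1 AP-1 type sequence. SGMS2 has 3 windows in RefSeq, and the GC box was found in a window of SGMS2 that is not printed. RefSeq windows were found for 37 of the 47 genes (57 windows, as some genes have several starts whose windows can overlap). In the full 250 bases, 73.7% of these windows held GGGCGG and 10.5% TGANTCA, against 42.6% and 6.57% of all 35116 windows. The E-box CACGTG was in 5.26% and 6.34%, and CCAAT in 26.3% and 32.0%. A match says only that the letters are present.

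Sphingomyelin breakdown was grouped with SMPDL3A and the saposin precursor PSAP. The group had 2 rises and 1 fall among its 6 tested members, a share of 50% where 50.4% of all tested genes passed. SMPDL3A was 1 of the rises and PSAP the fall. SMPD2, a neutral sphingomyelinase, rose from 219, 252 and 207 counts to 240, 347 and 271, or from 15.7 ± 1.11 to 23.6 ± 2.80 CPM (log2FC 0.59, SE 0.11, adjusted p = 1.58e-05). SMPDL3A, a secreted phosphodiesterase related to acid sphingomyelinase, rose from 40, 46 and 48 counts to 59, 69 and 75, or from 3.15 ± 0.660 to 5.63 ± 0.805 CPM. Its log2FC was 0.85 (SE 0.22, adjusted p = 0.00175). The groups did not overlap in either gene, and each rested on lower counts than UGCG. SMPD1, the lysosomal acid sphingomyelinase, did not pass (log2FC 0.17, adjusted p = 0.497); control replicate 2 and knockout replicate 2 were its highest libraries, at 6.83 and 7.37 CPM.

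The neutral sphingomyelinase genes SMPD3 and SMPD4 did not pass. SMPD3 was below 1.1 CPM in every library (log2FC -0.11, adjusted p = 0.859). SMPD4, whose reads could be split with annotated pseudogene copies, had 0.14 (adjusted p = 0.0852) and passed without knockout replicate 3 (0.20, adjusted p = 0.0185).

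PSAP encodes the precursor of the saposins, which help lysosomal enzymes reach glycosphingolipids and sphingomyelin. It was the most abundant member per kilobase in both groups, at 135 ± 0.787 and 107 ± 1.60 CPM per kilobase. In CPM it fell from 437, 434 and 439 to 340, 347 and 350 (log2FC -0.34, SE 0.05, adjusted p = 8.60e-08).

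Ceramidases release sphingosine from ceramide. ACER3, the alkaline ceramidase of the endoplasmic reticulum and Golgi, rose from 92.1, 92.2 and 93.4 CPM to 142, 128 and 145 CPM (log2FC 0.58, SE 0.06, adjusted p = 4.33e-11). This 1.49-fold change lies just under the 1.5-fold limit used above. ASAH1, the lysosomal acid ceramidase, fell from 88.0 ± 3.74 to 77.8 ± 5.97 CPM (log2FC -0.18, SE 0.06, adjusted p = 0.0166). Knockout replicate 1, at 84.7 CPM, lay above control replicate 1, at 84.1 CPM, and the call was lost without control replicate 2 or 3 or knockout replicate 2 or 3 (adjusted p 0.00399 to 0.0960 over all settings).

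ACER2, the Golgi alkaline ceramidase, fell from 73, 102 and 61 counts to 47, 53 and 39 (log2FC -0.49, SE 0.21, adjusted p = 0.0470). That call did not pass in 9 of 13 other settings, all 6 that leave out a library among them (adjusted p 0.0351 to 0.176). ACER1, the ceramidase of differentiated epidermis, had 0 counts in all 6 libraries, which allows at most 0.0690 CPM in the controls and 0.0830 CPM in the knockout. ACER3 made up 57.5% ± 0.845 of the 3 ceramidase members with counts, per kilobase, in the controls and 70.7% ± 1.96 in the knockout. ASAH1 took 30.0% ± 0.901 and 21.9% ± 1.17. These shares depend on merged exons of 15378 bases for ASAH1 and 8442 for ACER3. In CPM the controls held 88.0 and 92.6. ASAH2, a ceramidase gene outside the members and this total, had 60 counts over the controls and 51 over the knockout (log2FC 0.02, adjusted p = 0.971).

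SPHK1, the inducible sphingosine kinase, rose from 88, 82 and 43 counts to 111, 127 and 75, or from 6.33, 4.75 and 3.49 CPM to 9.60, 9.64 and 6.56 CPM. The groups lay close, with the highest control at 6.33 and the lowest knockout library at 6.56 CPM (log2FC 0.82, SE 0.20, adjusted p = 0.000939). SPHK2, the other kinase, had a log2FC of 0.29 and did not pass (adjusted p = 0.127). SGPL1, the lyase that irreversibly breaks sphingosine 1-phosphate, fell from 83.5, 85.8 and 89.5 CPM to 68.3, 68.7 and 70.4 CPM (log2FC -0.32, SE 0.06, adjusted p = 2.84e-05). The phosphatases SGPP1 (-0.12, adjusted p = 0.281) and SGPP2 (-0.14, adjusted p = 0.699) did not pass on the log2 scale. In this step 1 kinase rose, the lyase fell, and 3 of the 5 genes of this step did not pass. The share called is 40%, where 50.4% of all tested genes passed.

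**Figure D3:**
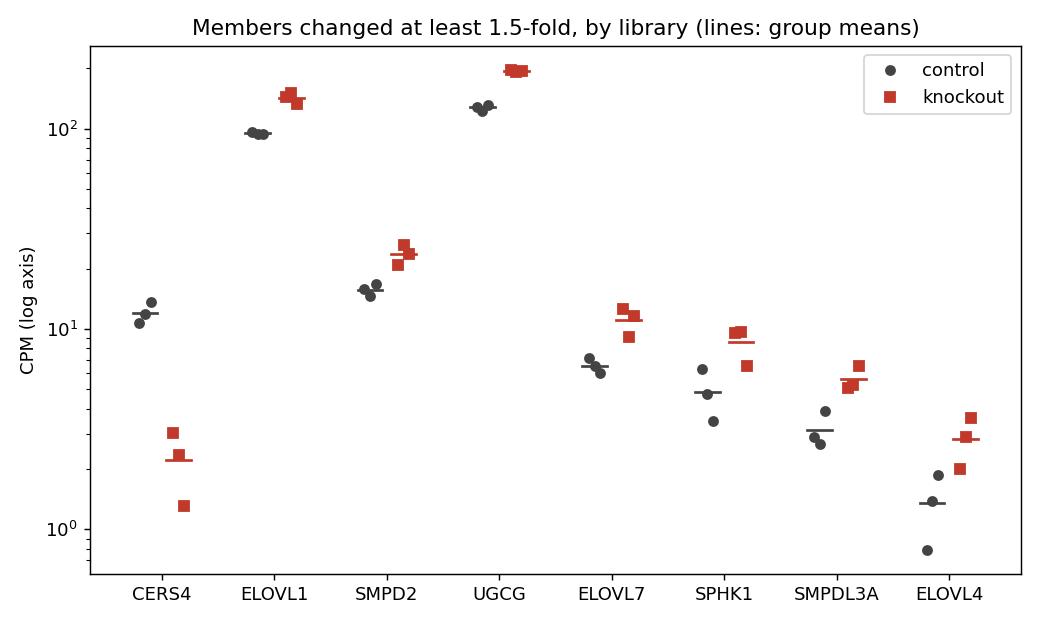
CPM in each library (log axis) for the 8 members changed at least 1.5-fold and past the threshold, ordered by fold change, with controls as grey circles, knockout libraries as red squares and group means as lines. CERS4 is the only one of the 8 that lies lower in the knockout. The groups are closest for SPHK1 and ELOVL4.

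Fatty acid elongation held 3 of the 7 rises of at least 1.5-fold. That is 42.9% of only 7 tested genes in this step, where 4.99% of all tested genes rose by that much. The count is not firm, as ELOVL1 lay at the limit with a 1.503-fold change. Its log2FC was 0.56 under upper-quartile scaling and 0.55 without knockout replicate 2, both under the limit. ELOVL1, the elongase of saturated very-long-chain acyl-CoAs, was abundant and rose from 1333, 1622 and 1157 counts to 1663, 1973 and 1516. In CPM these were 95.9, 93.8 and 93.9 against 144, 150 and 133 (log2FC 0.59, SE 0.05, adjusted p = 1.92e-11). ELOVL7, an elongase of saturated and unsaturated acyl chains, rose from 99, 113 and 74 counts to 146, 120 and 133, or from 6.56 ± 0.559 to 11.1 ± 1.81 CPM. Its log2FC was 0.76 (SE 0.16, adjusted p = 0.000121), and knockout replicate 2 was the lowest knockout library at 9.11 CPM, above the highest control at 7.12 CPM.

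ELOVL4, which makes the ultra-long chains of acylceramides, rose from a low level. It had 11, 24 and 23 counts in the controls and 23, 38 and 41 in the knockout, or 0.792, 1.39 and 1.87 against 1.99, 2.89 and 3.59 CPM. The log2FC was 1.07 (SE 0.34, adjusted p = 0.00766). The call was lost without control replicate 1 (log2FC 0.81, adjusted p = 0.0610) and without knockout replicate 3 (0.87, adjusted p = 0.0660). Over all settings the adjusted p ran from 0.00457 to 0.0660. ELOVL5, the elongase of polyunsaturated fatty acids, was level at 84.9 ± 2.27 and 86.5 ± 5.13 CPM (log2FC 0.03, adjusted p = 0.752).

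HACD3 and TECR carry out the dehydration and last reduction of each elongation cycle. HACD3 had a log2FC of 0.05 (adjusted p = 0.382). TECR fell from 31.5 ± 2.69 to 26.2 ± 0.348 CPM (log2FC -0.27, SE 0.09, adjusted p = 0.0101; 0.124 without control replicate 2). SLC27A4, the fatty acid transporter and acyl-CoA synthetase whose loss causes a human ichthyosis, had 0.12 and did not pass (adjusted p = 0.0994), though its groups did not overlap. Per kilobase ELOVL1 made up 61.0% ± 0.935 of the 4 elongase members in the controls and 68.5% ± 2.46 in the knockout. ELOVL5 took 36.0% ± 0.861 and 27.4% ± 1.90. In the order of all tested members per kilobase, PSAP was highest in both groups. ELOVL1 stood at 37.7 ± 0.469 in the controls behind HACD3 (48.4 ± 1.22), and at 56.7 ± 3.49 in the knockout ahead of HACD3 (50.2 ± 2.99 CPM per kilobase).

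ELOVL1 is the most abundant of the elongase members, and its promoter window is shown under the same rules, from chr1:43368075-43368261, minus strand, with GC boxes in capitals.
ELOVL1: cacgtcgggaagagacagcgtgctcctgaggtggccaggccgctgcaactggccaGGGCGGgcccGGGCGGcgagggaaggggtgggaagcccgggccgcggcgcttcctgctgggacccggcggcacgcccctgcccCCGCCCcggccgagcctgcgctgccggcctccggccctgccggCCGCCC
The window holds 4 GC boxes and 0 AP-1 type or E-box sequences.

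Of the 7 genes grouped here as acylceramide and barrier lipids, 5 were nearly silent in both groups and too low for the main test. CYP4F22, the hydroxylase that prepares ultra-long fatty acids for linoleate, had 0 counts in all controls and in 2 knockout libraries, and 2 counts in knockout replicate 3. PNPLA1, the transacylase that makes acylceramide, had 1 count over the controls and 2 over the knockout. ALOX12B, the lipoxygenase that oxidises linoleate in acylceramides, had 5 and 4 counts (ratio 0.962, 95% counting interval 0.191 to 4.47). ALOX15B, another lipoxygenase, had 4 and 1 (ratio 0.301, interval 0.00611 to 3.04). No difference was detectable in these genes at this depth.

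ALOXE3, the lipoxygenase that acts after ALOX12B, was the exception. It had 3, 1 and 0 counts in the controls and 9, 8 and 8 in the knockout, a ratio of 7.52 (95% counting interval 2.60 to 29.7). The groups did not overlap, yet its level in the knockout was only 0.695 ± 0.0854 CPM. It was too low for the main test and passed without the filter on low counts (log2FC 2.80, adjusted p = 0.00553). The lipase coactivator ABHD5 and the triglyceride lipase PNPLA2, which it activates, were expressed and did not pass, with log2FCs of 0.13 (adjusted p = 0.197) and 0.08 (adjusted p = 0.731). These values stand beside the late differentiation markers above, 6 of which were also too low to test. The part of differentiation state in them was not tested.

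Each member was also set beside its 20 nearest tested genes on either side of it on the chromosome. The median log2FC of such neighbours was at least 0.2 in size for 1630 of 12090 tested genes with a position, and for 4 of the 39 tested members, all 4 below 0. DEGS1, on the long arm of chromosome 1, had -0.30 beside neighbours at -0.32. PSAP (-0.34) and SGPL1 (-0.32), which lie near each other on chromosome 10, had neighbours at -0.22 and -0.21. CERS2, also on the long arm of chromosome 1, was level at -0.02 while its neighbours had a median of -0.39. The targeted gene SDR42E1, on chromosome 16, had -1.16 among neighbours with a median of -0.53. How much of its fall is shared with them was not tested.

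CERS4, CERS3, CERK and SPTLC3 fell among neighbours with medians of 0.02, 0.02, 0.01 and -0.12. The neighbours of the 9 risen genes had medians from -0.07 for ACER3 to 0.17 for ELOVL1. Without the 4 members in shifted surroundings, an alternative chosen after seeing the data, 19 of 35 passed, 9 higher and 10 lower. The share is 54.3%, where 48.4% of the 10460 tested genes in unshifted surroundings passed (26.9% higher and 21.5% lower).

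**Figure D4:**
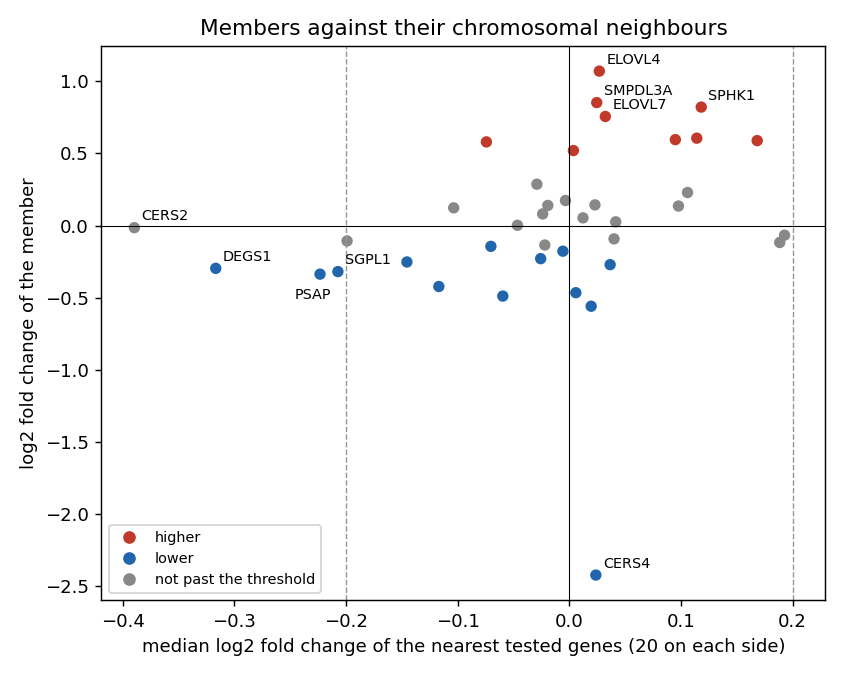
Log2FC of each of the 39 tested members (y axis) against the median log2FC of its 20 nearest tested genes on each side (x axis). Colours give the call, and dashed lines stand at -0.2 and 0.2. CERS2, DEGS1, PSAP and SGPL1 lie left of the line, with CERS2 close to 0, and CERS4 lies at the bottom with neighbours near 0.

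Of 70 further genes of lipid metabolism around these steps, 57 were tested, and 16 rose, 20 fell and 21 did not pass. That is 63.2% called, beside 50.4% of all tested genes, with a median log2FC of 0.02. The 8 with the smallest adjusted p were 2 rises and 6 falls. ACSL4, an acyl-CoA synthetase for polyunsaturated fatty acids, rose from 87.4 to 168 CPM (log2FC 0.94, SE 0.06), and FABP5, the epidermal fatty acid binding protein, by 1.29 (SE 0.19). ALDH3A2, the fatty aldehyde dehydrogenase that clears the product of SGPL1 and is mutated in Sjögren-Larsson syndrome, fell from 212 to 120 CPM (log2FC -0.82, SE 0.05) among neighbours at -0.28. The fatty acid transporter gene SLC27A3 had a log2FC of -1.46 (SE 0.14).

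ORMDL3, an inhibitor of serine palmitoyltransferase, had a log2FC of -0.61 (SE 0.08), and its neighbours on chromosome 17 a median of -0.96. SAMD8, a ceramide phosphoethanolamine synthase, changed by -0.48, B4GALT5, which makes lactosylceramide from the product of UGCG, by -0.38, and HACD2, a dehydratase of the elongation cycle, by -0.31. Adjusted p was at most 1.23e-06 for these 8 genes.

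The library kit keeps strand, but the sources used here do not give the strand setting of the counting. Exons of 17 of the 47 members overlap a gene of the other strand, SMPD2 (PPIL6), SPHK1 (PRPSAP1), SGMS2 and ACER3 among the risen ones, so their values could include reads of those genes. UGCG, CERS3, CERS4, ELOVL4, ELOVL7, SMPDL3A, CERK, PSAP and SGPL1 have no such overlap in GENCODE release 29.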

How the data were processed

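Raw read counts of every gene in 6 HaCaT libraries were deposited by the authors as 1 table. Reads were placed on GRCh38, per the submitters' processing notes. For the aligner, counter and annotation, nothing is stated in the labels used here. Columns were matched to samples by name. The test was that of edgeR 4.0.16 (R 4.3.3), with filterByExpr (minimum count 10, minimum total 15), TMM scaling and the quasi-likelihood F test, fitted robustly to all 6 libraries, two-sided, with Benjamini-Hochberg adjustment over 12293 genes and a threshold of 0.05. Every adjusted p comes from this test unless another setting is named. The SE is the size of the log2 fold change divided by the root of F. CPM uses TMM-adjusted totals. Counting intervals are exact binomial and cover counting error only. Exon lengths and positions came from GENCODE release 29 (GRCh38).

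On counts simulated for this comparison over 12293 genes, edgeR recovered 56% of 1.25-fold, 86% of 1.5-fold and 92% of 2-fold changes. Every simulated gene had the same biological coefficient of variation, 0.0539, and 50 genes were changed at each fold size. In the data the variation was fitted gene by gene and 50.4% of genes passed. The recovery rates therefore need not hold for the real comparison. Libraries of 1 group were further apart than read sampling gives (chi-square 2.65 to 4.49 per degree of freedom), so each was kept as a replicate.

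Members and lists were chosen with earlier results of these data known. All members are reported; counts per library are given for those past the threshold with a log2 change of at least 0.58, and the 8 smallest adjusted p among further lipid genes are named. Alternatives were DESeq2 1.42.0, limma-voom (limma 3.58.1), RLE and upper-quartile scaling, other filters, a block for the replicate number, and each library left out in turn. Proteins and lipids were not analysed here.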

Additional observations from a re-analysis of the deposited data

How the results depend on the processing

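Of 39 tested members, 31 stayed on the same side of the threshold under all planned settings that gave them a value, and 8 crossed it under at least 1 (ACER2, ASAH1, CERS5, CERS6, ELOVL4, SGMS1, SMPD4 and TECR). Of the 22 called members 0 changed sign, and of the 17 not past the threshold 9 did under at least 1 setting. Leaving out 1 library gave 17 to 20 members called, 8 to 10 higher and 8 to 12 lower; the lowest count of falls came without control replicate 2, and the cause was not tested. Over all genes the same fits called 5338 to 6074, also lowest without control replicate 2, against 6197. Members changed at least 1.5-fold numbered 6 under upper-quartile scaling and 10 with no filter, where ALOXE3 and DEGS2 were added, against 8. With 1 library left out they numbered 6 without control replicate 2, 8 without control replicate 3 and 7 in each other such fit. UGCG, ELOVL1 and SMPD2 lie close to the 1.5-fold limit. DESeq2 called 20 members and limma-voom 22. Upper-quartile scaling moved the members' median log2 fold change from 0.0016 to -0.028, and that of all tested genes from -0.004 to -0.034. Deviations of libraries that share a replicate number were uncorrelated (0.025, -0.077 and 0), and some libraries correlated better with another number, so no pairing was assumed. With the replicate block 6425 genes and 21 members passed, 9 higher and 12 lower. Members under about 1 CPM were limited by depth.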
